A study of Mus musculus with 6 samples.

Results

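The genes of the mitochondrial respiratory chain and of ATP synthase were compared between the livers of A/J and A/J-12SM mice. A gene was taken when its symbol on the array began with Nduf, Sdha, Sdhb, Sdhc, Sdhd, Uqcr, Cox4, Cox5, Cox6, Cox7, Cox8 or Atp5. Of 18193 genes that had a probe set of their own, 94 met this rule. They comprise 34 genes of complex I, 4 of complex II, 8 of complex III, 18 of complex IV, 17 of ATP synthase, 12 assembly factors with the prefix Ndufaf or Sdhaf, and Ndufa4l2, which is not a subunit. Ndufa4 was counted with complex IV, where its protein is found, and so was Cox7a2l, whose protein helps to join complexes into larger assemblies. A transcript is read by several short probes that make up a probe set. Where a gene had more than 1 such set, the one with the highest mean log2 signal over the 6 arrays represented it. Another 10 probe sets that name a member together with a different gene were left out.

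A/J-12SM is a consomic strain, which carries chromosome 12 of the SM/J strain on the A/J background, and A/J is the recipient strain. All mice of both strains were male and received the high-fat diet for 7 weeks. Liver RNA of 3 mice was combined for each array, and 3 arrays were made per strain, so each value is that of a pool and the spread between single mice was not measured. There was no group on a normal diet. The third A/J-12SM array stood apart from the rest in its ratio of 5′ to 3′ actin signal, a measure of RNA integrity, which was 0.423 against 0.553 to 0.590 in the other arrays. The same ratio for Gapdh was 1.53 in this array and 1.45 to 1.55 in the others. Differences are given as A/J-12SM minus A/J on the log2 scale after quantile normalization, and the test is that of limma over all 45037 probe sets with Benjamini-Hochberg adjustment.

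The respiratory chain lies in the inner mitochondrial membrane. Complexes I and II pass electrons from NADH and succinate to ubiquinone, complex III passes them on to cytochrome c, and complex IV hands them to oxygen, while ATP synthase uses the proton gradient built on the way to make ATP. Liver is rich in mitochondria, and its hepatocytes burn fatty acids through this chain. Most subunits are encoded in the nucleus and are measured here. The subunits encoded by mitochondrial DNA were not analysed here.

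After quantile normalization, respiratory chain and ATP synthase mRNA levels in the liver differed little between A/J and A/J-12SM mice. None of the 94 genes passed the adjusted threshold of 0.05 in limma (smallest adjusted p = 0.799, Cox7c), while 12 of all 18193 genes did, or 0.066%. At an unadjusted p under 0.05 there was 1 gene of the 94, Cox7c, where 6.79% of all genes reached that level. In A/J-12SM liver 45 of the genes had higher and 49 had lower values, a split that was 10 and 84 with the values as deposited, 74 and 20 with each array centred on its median, and 65 and 29 with a common trimmed mean. The median difference was -0.004 on the log2 scale, beside -0.006 for all genes.

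Under quantile normalization the arrays also set a limit on how large a difference could be, relative to the other genes. The intervals below hold no uncertainty from the choice of scaling. That choice moved the median difference of the 94 genes from -0.165, as deposited, to 0.074, with each array centred on its median. Of the 94 genes, 87 had a mean log2 signal of at least 5.33, the median over the whole array, and these are called bright below. Among the bright genes the absolute log2 difference had a median of 0.06, and it was under 0.1 in 64 and under 0.2 in 81 of 87. The 95% interval of the difference lay within 0.25 of zero on the log2 scale, or 1.19-fold, in 31 of the bright genes. It lay within 0.5, or 1.41-fold, in 79 of 87, the others being Cox7a1, Cox7c, Cox8a, Cox8c, Ndufaf2, Ndufaf5, Ndufaf6 and Sdhaf1. It lay within 1, or 2-fold, in 86 of 87, with Cox7c the exception. The interval reached 0.20 to either side in the median bright gene (range 0.16 to 0.54). The median SD between replicate arrays was 0.09 for these genes and 0.19 for all bright genes.

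**Figure D1:**
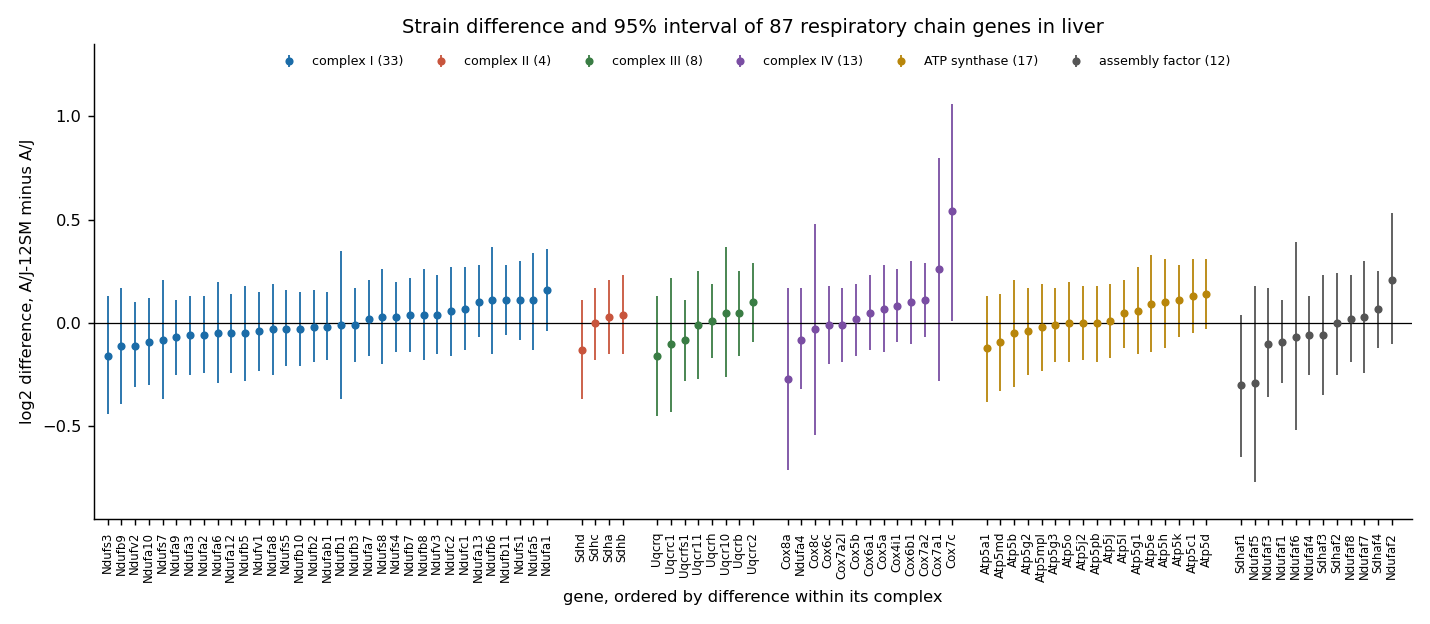
Difference of the log2 signal between A/J-12SM and A/J liver (y axis) for the 87 bright genes, grouped by complex and ordered by size (x axis). Points are differences and lines are their 95% intervals from limma; all intervals but that of Cox7c, from 0.01 to 1.06, hold zero.

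The 7 dimmer genes had much wider intervals, with a median of 1.76 to either side on the log2 scale (range 0.92 to 2.32). They were Cox4i2, Cox6a2, Cox6b2, Cox7b2, Cox8b, Ndufa4l2 and Ndufb4, and none of their intervals lay within 1 of zero. Each of these intervals held zero and also a difference of 2-fold in at least 1 direction.

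SM/J sequence replaces that of A/J only on chromosome 12 in A/J-12SM mice, and 3 of the genes lie there: Ndufb1, Atp5mpl and Cox8c. Ndufb1, a small accessory subunit in the membrane arm of complex I, had log2 signals of 6.89, 7.31 and 7.26 in the A/J arrays and 7.10, 7.16 and 7.16 in the A/J-12SM arrays. The A/J-12SM values all lay inside the A/J range, and the difference was -0.01 (SE 0.16, 95% interval -0.37 to 0.35). Its mean log2 signal of 7.15 was the lowest of the bright complex I genes, the next being Ndufs4 at 10.58. How well the Ndufb1 probe set reads the transcript was not tested. Atp5mpl encodes a small protein that copurifies with ATP synthase. Its log2 signals were 12.14, 12.11 and 11.94 in A/J, and those in A/J-12SM liver ran from 11.97 in the third to 12.17 in the second array. These values overlapped too, with a difference of -0.02 (SE 0.09, 95% interval -0.23 to 0.19). Cox8c, an isoform of a complex IV subunit known from testis, had log2 signals of 8.61, 8.16 and 7.66 in A/J, against 8.33, 8.20 and 7.81 in A/J-12SM liver. The A/J-12SM arrays lay between the highest and the lowest A/J array, at a difference of -0.03 (SE 0.23), and a second, dimmer Cox8c probe set gave 0.53 (SE 0.33, 95% interval -0.21 to 1.27). The 91 genes on other chromosomes had a median difference of -0.003.

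The promoter of Ndufb1 is shown because this gene lies on the exchanged chromosome, and those of Atp5l, a subunit of the membrane part of ATP synthase, and Sdhd, a membrane anchor of complex II, because 3 of 4 motifs of known regulators of respiratory genes occur in each. The sequences are RefSeq's for GRCm38.p6, the C57BL/6J reference, and not those of A/J or SM/J. Each runs 5′ to 3′ on the minus strand from 250 bases before to 50 bases after the annotated start. Ndufb1 occupies chr12:101975689-101975988, Atp5l chr9:44920693-44920992 and Sdhd chr9:50603800-50604099. Capitals mark motif matches on either strand.
Ndufb1: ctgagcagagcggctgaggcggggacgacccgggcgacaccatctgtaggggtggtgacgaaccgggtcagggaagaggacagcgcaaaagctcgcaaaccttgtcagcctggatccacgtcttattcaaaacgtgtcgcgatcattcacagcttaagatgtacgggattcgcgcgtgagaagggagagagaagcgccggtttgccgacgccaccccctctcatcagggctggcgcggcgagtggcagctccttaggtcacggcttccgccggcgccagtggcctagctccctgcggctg
Atp5l: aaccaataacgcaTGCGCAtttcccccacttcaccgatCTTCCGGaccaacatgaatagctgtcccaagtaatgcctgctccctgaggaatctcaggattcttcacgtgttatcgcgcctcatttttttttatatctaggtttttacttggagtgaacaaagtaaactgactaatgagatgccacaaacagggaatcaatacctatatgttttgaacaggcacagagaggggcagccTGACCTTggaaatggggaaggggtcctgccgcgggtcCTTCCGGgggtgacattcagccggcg
Sdhd: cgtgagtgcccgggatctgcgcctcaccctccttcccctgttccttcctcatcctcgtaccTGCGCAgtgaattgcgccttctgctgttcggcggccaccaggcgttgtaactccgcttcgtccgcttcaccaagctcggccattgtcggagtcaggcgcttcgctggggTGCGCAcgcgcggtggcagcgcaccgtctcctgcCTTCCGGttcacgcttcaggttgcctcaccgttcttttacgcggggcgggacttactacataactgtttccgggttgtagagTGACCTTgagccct
The motifs searched were TGCGCA for NRF1, CCGGAAG for GABPA (NRF2), AAGATGGC for YY1 and AAGGTCA for ERRA, with their reverse complements; no base of a capital stretch was shared between motifs in these 3 windows. A promoter window was found for 78 of the 94 genes, and 44 of these genes had at least 1 motif. A gene was counted where any of its windows held the letters. The NRF1 letters occurred in 20 of 78 genes (25.6%), against 12.8% of the 14452 genes on the array that had a window. The GABPA letters occurred in 22 (28.2%, against 15.0%), those of YY1 in 10 (12.8%, against 4.07%) and those of ERRA in 8 (10.3%, against 4.61%). Bright genes with the NRF1 letters had a median log2 difference between strains of -0.03, those with the GABPA letters 0.02, those with the YY1 letters 0.00 and those with the ERRA letters -0.01. These shares were not tested against each other. A match of letters is a description and not a binding site, and the absence of one in the Ndufb1 window says only that these letters are not in it.

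Complex I, which oxidises NADH, had 14 genes with higher and 20 with lower values, a median log2 difference of -0.02 and a range of -0.16 to 0.16 over its 33 bright genes. None passed the test. Ndufs3, a core subunit of the arm that reaches into the matrix, had log2 signals of 11.95, 11.86 and 11.98 in A/J liver and 11.91, 11.96 and 11.46 in A/J-12SM liver. The third A/J-12SM array lay below the other 5, which overlapped, and the difference of -0.16 (SE 0.13, adjusted p = 0.883) was 0.00 without this array. Ndufa1, an accessory subunit encoded on the X chromosome, had log2 signals of 12.64, 12.70 and 12.69 in A/J, against 12.83, 12.71 and 12.97 in A/J-12SM liver. All A/J-12SM arrays were above all A/J arrays, by 0.16 on average (SE 0.09, adjusted p = 0.832), or 0.09 without the third A/J-12SM array. Ndufb11, also on the X chromosome and also an accessory subunit, had log2 signals of 12.64, 12.63 and 12.60 against 12.68, 12.73 and 12.79, a log2 difference of 0.11 (SE 0.08) without overlap. Its other bright probe sets gave 0.15 (SE 0.08) and -0.04 (SE 0.12). Ndufb6, of the membrane arm, had the same mean difference of 0.11 (SE 0.12), but its arrays overlapped and its value was -0.03 without the third A/J-12SM array. Over the 6 core subunits measured the median was -0.06, with 2 higher and 4 lower. The single dim gene, Ndufb4, had log2 signals of 4.21, 3.66 and 4.99 in A/J liver and 4.53, 4.30 and 0.38 in A/J-12SM liver, so that 1 array lay far below the other 5. Its difference was -1.22 (SE 1.04, 95% interval -3.54 to 1.10), and 0.13 without this array, the third of A/J-12SM. Only 1 probe set named Ndufb4 alone, and how well it reads the transcript was not tested.

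The 4 genes of complex II, or succinate dehydrogenase, also part of the citric acid cycle, differed by -0.13 to 0.04 on the log2 scale. Sdha, the flavoprotein that oxidises succinate, had log2 signals of 12.47, 12.39 and 12.38 in A/J, against 12.51, 12.38 and 12.43 in A/J-12SM liver, a difference of 0.03 (SE 0.08). Sdhb, the iron-sulfur subunit, differed by 0.04 (SE 0.08). Their 95% intervals were -0.15 to 0.21 and -0.15 to 0.23. Sdhd, a membrane anchor whose promoter is printed above, had log2 signals of 11.99, 11.81 and 11.76 in A/J liver and 11.85, 11.79 and 11.51 in A/J-12SM liver. The strains overlapped, with a difference of -0.13 (SE 0.11, 95% interval -0.37 to 0.11). It was -0.03 without the third A/J-12SM array and -0.06 without the first A/J array.

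Complex III, ubiquinol-cytochrome c reductase, had 4 higher and 4 lower genes and a median log2 difference of 0.00 (range -0.16 to 0.10). Uqcrc2, a core protein of the matrix side, had log2 signals of 12.22, 12.04 and 12.22 in A/J, against 12.28, 12.24 and 12.27 in A/J-12SM liver, higher without overlap by 0.10 (SE 0.08, adjusted p = 0.885). Without the second A/J array the difference was 0.04, and a second bright Uqcrc2 probe set gave 0.03 (SE 0.10). Uqcrc1 encodes the other core protein. Its log2 signals were 12.11, 11.97 and 11.98 in A/J liver and 12.11, 12.11 and 11.55 in A/J-12SM liver, at a difference of -0.10 (SE 0.14) that was 0.08 without the third A/J-12SM array. Uqcrq, a small subunit bound to cytochrome b, had 12.95, 12.98 and 12.90 against 12.89, 12.99 and 12.47, again with the lowest value in the third A/J-12SM array. Its log2 difference was -0.16 (SE 0.13) with and -0.01 without this array.

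Complex IV, cytochrome c oxidase, held the most isoforms and the widest range, -0.27 to 0.54 on the log2 scale over 13 bright genes. Its 18 genes had a median of 0.03, with 10 higher and 8 lower. Cox7c, a small structural subunit encoded on chromosome 13, had log2 signals of 5.98, 6.32 and 6.87 in A/J, against 7.05, 6.89 and 6.86 in A/J-12SM liver. The third A/J array lay just above the third A/J-12SM array, and the others did not cross. The difference of 0.54, or 1.45-fold, had an SE of 0.23 and a 95% interval of 0.01 to 1.06, and it did not pass adjustment over all probe sets (unadjusted p = 0.0455, adjusted p = 0.799 from limma). The A/J replicates of Cox7c varied more (SD 0.45) than those of A/J-12SM (SD 0.10), and a second, dim Cox7c probe set gave 0.29 (SE 0.33). With single arrays left out the difference ran from 0.34, without the first A/J array, to 0.77, without the third. The brightest Cox7c set had a mean log2 signal of only 6.66, against 13.25 for Cox4i1 and 13.64 for Cox7a2. How well it reads the Cox7c transcript was not tested. Cox8a, the isoform of subunit VIII usual in liver, had log2 signals of 11.76, 11.86 and 11.64 in A/J liver and 11.80, 11.72 and 10.94 in A/J-12SM liver. Its difference was -0.27 (SE 0.20) with and 0.00 without the third A/J-12SM array. Cox4i1 and Cox7a2, both common subunits of the liver enzyme, were higher without overlap, with log2 means of 13.21 and 13.59 for A/J against 13.29 and 13.70 for A/J-12SM.

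Isoforms of complex IV known from other tissues were mostly dim. Cox7a1, a form of heart and skeletal muscle, was bright, with log2 signals of 5.80, 5.92 and 6.07 in A/J, against 6.12, 5.92 and 6.53 in A/J-12SM liver. Its difference was 0.26 (SE 0.24, 95% interval -0.28 to 0.80), and 0.09 without the third A/J-12SM array. The dim ones were Cox4i2, a form of lung, at -0.48 (SE 0.41), Cox6a2 and Cox8b, forms of muscle, at -0.13 (SE 0.44) and 0.67 (SE 0.81), and Cox6b2 and Cox7b2, known from testis, at -0.48 (SE 0.42) and 0.42 (SE 0.79). Ndufa4l2, a relative of Ndufa4 that low oxygen is known to induce, was dim as well, with log2 signals of 3.78, 5.86 and 2.65 in A/J liver and 5.11, 5.51 and 3.29 in A/J-12SM liver. The 95% intervals of all these isoforms held zero. With single arrays left out the differences ran from -0.81 to -0.23 for Cox4i2, -0.72 to -0.04 for Cox6b2, 0.07 to 0.77 for Cox7b2 and 0.10 to 1.44 for Cox8b, and those of Cox6a2 and Ndufa4l2 changed sign. Markers of skeletal and heart muscle were mostly dim too, with 3 of 11 bright.

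The 17 genes of ATP synthase, all bright, had 10 higher and 7 lower values, a median log2 difference of 0.00 and a range of -0.12 to 0.14. Atp5d, the delta subunit of the central stalk, had log2 signals of 12.29, 12.23 and 12.25 in A/J, against 12.39, 12.40 and 12.41 in A/J-12SM liver. All A/J-12SM arrays were higher, by 0.14 (SE 0.07, 95% interval -0.03 to 0.31, adjusted p = 0.829), but a second bright Atp5d probe set gave -0.02 (SE 0.19). Atp5c1, the gamma subunit that turns inside the catalytic head, had log2 signals of 13.11, 13.10 and 13.13 in A/J liver and 13.18, 13.26 and 13.29 in A/J-12SM liver, also without overlap. Its difference was 0.13 (SE 0.08), and a second, dimmer probe set gave 0.49 (SE 0.17, 95% interval 0.10 to 0.88, adjusted p = 0.731). Atp5a1, the alpha subunit of the catalytic head, had 13.15, 13.04 and 13.00 against 13.10, 13.03 and 12.69. Its log2 difference of -0.12 (SE 0.12) was 0.00 without the third A/J-12SM array.

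Of the 12 assembly factors, which help to build the complexes without being part of them, 4 had higher and 8 had lower values, with a median log2 difference of -0.06 and a range of -0.30 to 0.21. Sdhaf1, on chromosome 7, helps to mature the iron-sulfur subunit of complex II and had log2 signals of 8.32, 8.37 and 8.37 in A/J, against 8.26, 8.19 and 7.70 in A/J-12SM liver. The A/J-12SM arrays were all lower, by 0.30 on average (difference -0.30, SE 0.15, 95% interval -0.65 to 0.04, adjusted p = 0.822), and the difference was -0.13 without the third A/J-12SM array. Ndufaf2, a factor of complex I assembly, had 7.50, 7.70 and 7.70 against 7.75, 8.06 and 7.72, a log2 difference of 0.21 (SE 0.14) without overlap, and of 0.10 without the second A/J-12SM array. Ndufaf5, which modifies a complex I subunit, had 6.63, 6.71 and 7.28 against 6.58, 6.73 and 6.43, and its difference of -0.29 (SE 0.21) came with overlap and with the widest spread among A/J arrays of the assembly factors (SD 0.35). Without the third A/J array it was -0.09. Ndufaf8 differed by 0.02 (SE 0.09), while a second bright probe set of it gave -0.49 (SE 0.18, 95% interval -0.89 to -0.09, adjusted p = 0.737).

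**Figure D2:**
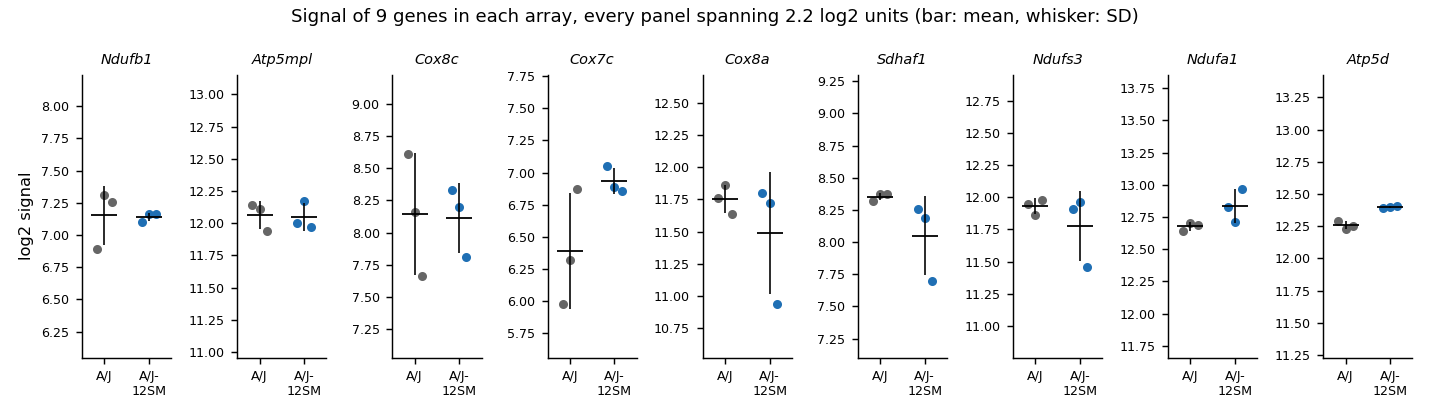
Log2 signal (y axis) of 9 genes named in the text, with A/J arrays in grey and A/J-12SM arrays in blue; each point is 1 array, bars are means and whiskers SDs of 3 arrays, and all panels span the same number of log2 units. In Cox8a, Sdhaf1 and Ndufs3 a single A/J-12SM array lies well below the rest, and in Atp5d the strains are 0.14 apart without overlap.

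All 3 arrays of A/J-12SM lay above all 3 of A/J in 10 of the 94 genes, or 10.6%, where 5.94% of all genes did so. These were Atp5c1, Atp5d, Atp5k, Ndufaf2, Ndufa1, Ndufa13, Ndufb11, Uqcrc2, Cox4i1 and Cox7a2. All lay below in 1 gene, Sdhaf1, or 1.06%, where 6.38% of all genes did so. Each of these 11 genes had an exact two-sided permutation p of 0.1, the smallest that 3 arrays against 3 allow.

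The count depended on how the arrays were brought to 1 level. With arrays scaled to 1 trimmed mean it was 22 higher and 1 lower (all genes 6.01% and 6.30%), with each array centred on its median 3 and 0 (all genes 4.57% and 4.83%), and with the values as deposited 0 and 31 (all genes 1.32% and 21.2%). The deposited array levels were lower in A/J-12SM, with trimmed means of 171, 186 and 178, than in A/J, with 213, 201 and 204. The median log2 difference of the 94 genes was -0.165 as deposited (all genes -0.224), 0.074 with centring (all genes 0.016) and 0.043 with the trimmed mean (all genes -0.016). These 3 scalings differ only by 1 constant per array on the log2 scale, so they shift the difference of every gene alike. The genes therefore lay about 0.06 above the median of all genes under each, which is 1 result and not 3. Under quantile normalization they lay at that median. Centring gave the highest medians by complex, 0.06 in complex I, 0.10 in complexes II and III, 0.18 in complex IV and 0.14 in ATP synthase, where all 17 genes had higher values. The assembly factors were at -0.03. The values as deposited gave -0.18, -0.14, -0.14, -0.06 and -0.10 in the same order, and -0.27 for the assembly factors, so the median of no complex kept 1 direction under every scaling. That of the assembly factors was below zero under each scaling and 0.01 without the third A/J-12SM array.

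**Figure D3:**
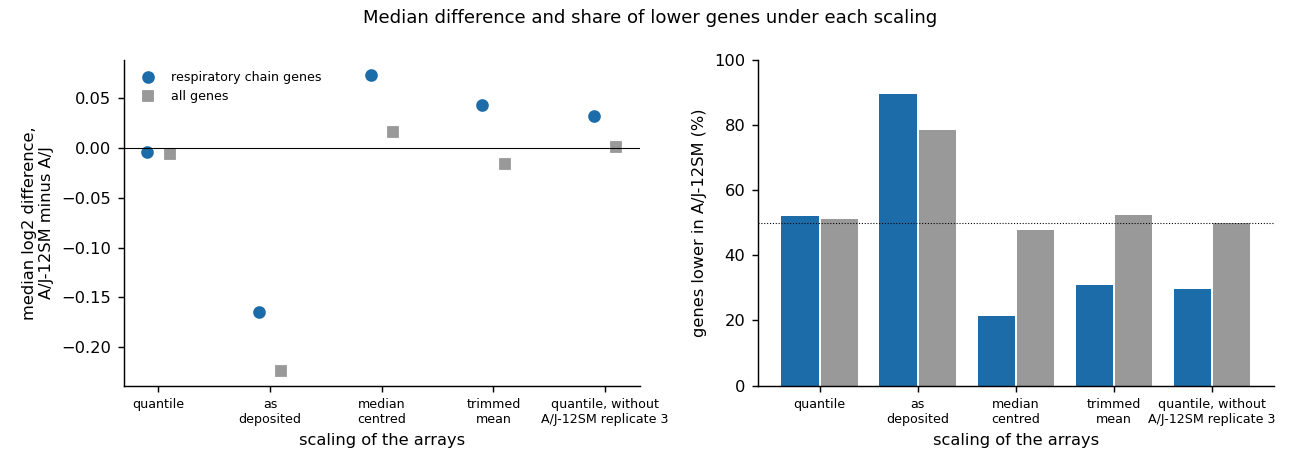
Left, median log2 difference between strains (y axis) of the 94 respiratory chain genes (blue circles) and all 18193 genes (grey squares) under each scaling of the arrays (x axis). Right, percent of these genes with lower values in A/J-12SM liver; the share of respiratory chain genes ran from 21.3% with centring to 89.4% as deposited, against 47.7% and 78.4% of all genes.

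The array with the low actin ratio was often the lowest in the respiratory chain genes, and in other genes of high signal too. The third A/J-12SM array had the lowest signal of the 6 arrays in 40 of the 87 bright genes (46.0%), against 25.4% of all bright genes, and the highest in 18 (20.7%, against 25.9%). Among other genes at least as bright as the median bright member, it was the lowest in 44.3% of 237, 41.9% of 93, 27.3% of 33 and 25.6% of 39. These are the shares for probe sets ending in _at, _a_at, _s_at and _x_at, in that order. Among the bright members, the third A/J-12SM array was the lowest in 15 of 33 genes of complex I, 1 of 4 of complex II, 5 of 8 of complex III, 3 of 13 of complex IV, 10 of 17 of ATP synthase and 6 of 12 assembly factors. Without it, 66 genes had higher and 28 lower values in A/J-12SM liver, the median log2 difference was 0.032 (all genes 0.001), and none passed the test (smallest adjusted p = 0.598). For these values the remaining arrays were normalized anew. The count of genes without overlap kept the normalization of all 6 arrays and only set that array aside. It was 20 higher genes (21.3%, all genes 10.9%) and 2 lower genes (2.13%, all genes 11.5%). Whether RNA integrity had a part in these values was not tested.

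**Figure D4:**
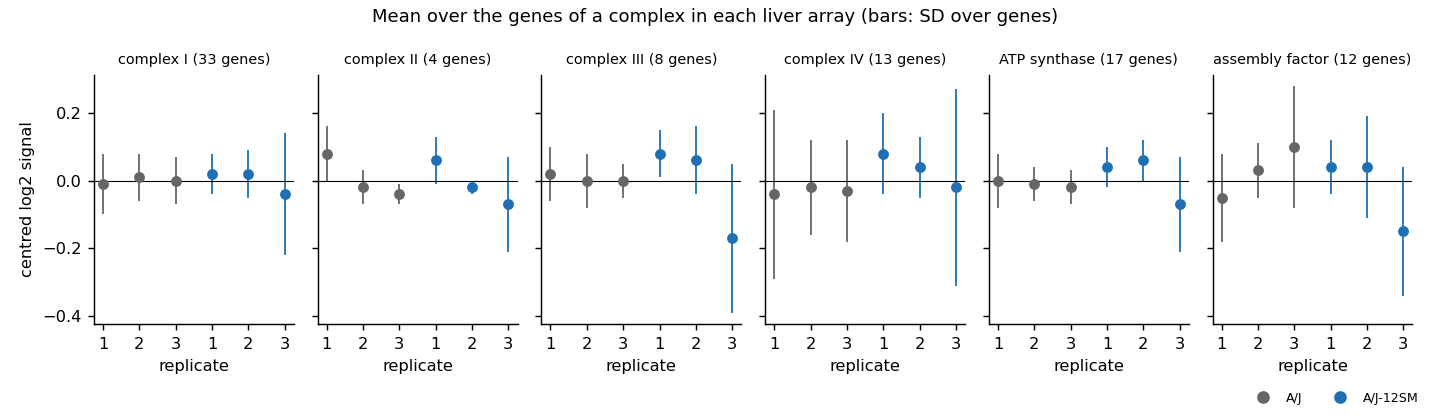
Mean log2 signal of the bright genes of each complex, after subtraction of each gene's own mean (y axis), by replicate (x axis), with A/J in grey and A/J-12SM in blue; bars are SDs over the genes of the panel and not errors of the mean. The third A/J-12SM array is the lowest in complexes I, II and III, ATP synthase and assembly factors, with means from -0.17 to -0.04.

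Among the respiratory chain genes the low values of that array were more frequent in 1 kind of probe set, a division made after the values were seen. Affymetrix names a probe set with the ending _at where its probes match 1 transcript alone, and with _a_at where they match several transcripts of 1 gene. Of the 40 bright genes read by an _at set, the third A/J-12SM array was the lowest in 26 (65.0%) and the highest in 2, with a median deviation from the gene's mean of -0.19 on the log2 scale. Of the 30 read by an _a_at set, it was the lowest in 8 (26.7%) and the highest in 12, with a median deviation of 0.03. Among other genes with _at sets at least as bright as the median respiratory chain gene, it was the lowest in 44.3% of 237, and among such genes with _a_at sets in 41.9% of 93. The median deviations were -0.04 and -0.03. With all arrays, 8 of the 40 genes had higher and 32 lower values in A/J-12SM liver (median log2 difference -0.05), while 23 of the 30 had higher and 7 lower values (median 0.05). Without the third A/J-12SM array the counts were 29 higher and 11 lower for _at sets, and 21 higher and 9 lower for _a_at sets. The median was then 0.03 for both.

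**Figure D5:**
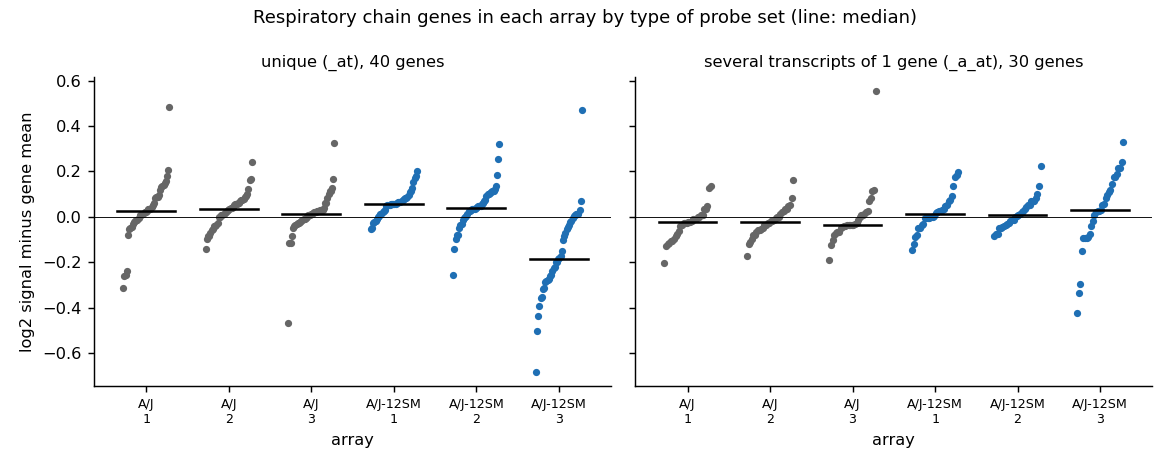
Log2 signal minus the gene's mean over 6 arrays (y axis) in each array (x axis) for the 40 bright genes read by _at probe sets (left) and the 30 read by _a_at probe sets (right); points are genes and lines are medians. The median of the third A/J-12SM array is -0.19 on the left and 0.03 on the right.

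Several probe sets were present for 53 of the 94 genes. The 91 further sets included 78 bright ones, with log2 differences from -0.49 to 0.53 and a median of 0.05. Over all 185 sets none passed the test in limma (smallest adjusted p = 0.731), and 6 had an unadjusted p under 0.05. Of all genes, each read by its brightest set, 6.79% did. Bright sets of 1 gene disagreed in direction by more than 0.5 before rounding in Ndufaf8 and Cox8c, given above, and in Uqcr10, a small subunit of complex III, whose sets gave 0.05 (SE 0.14, and 0.23 without the third A/J-12SM array), 0.29 (SE 0.32) and -0.21 (SE 0.28).

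Other genes of the pathway were also without a called difference in limma. Over all genes, 6.79% had an unadjusted p under 0.05 in that test. Of 38 assembly factors outside the prefixes used, such as those for complex IV, 11 had higher and 27 lower values, with a median log2 difference of -0.04 and 3 at an unadjusted p under 0.05. Among them Nubpl, which delivers iron-sulfur clusters to complex I, had a mean log2 signal of 9.07 in A/J liver and 8.64 in A/J-12SM liver (difference -0.43, adjusted p = 0.571). Cox18, which inserts a complex IV subunit into the membrane, had 8.56 and 8.17 (difference -0.39, adjusted p = 0.619). Of 24 genes of ubiquinone synthesis, cytochrome c and the exchange of electrons and nucleotides, 10 were higher and 14 lower (median -0.01, 1 at an unadjusted p under 0.05). Coq5, a methyltransferase of ubiquinone synthesis, had 8.35 in A/J, against 8.70 in A/J-12SM liver (log2 difference 0.35, adjusted p = 0.587). Of 18 nuclear and mitochondrial regulators, 13 were higher and 5 lower, with a median of 0.06 and 1 at an unadjusted p under 0.05. Ppargc1b, a coactivator of respiratory gene transcription, had 8.82 and 9.26 (log2 difference 0.44, adjusted p = 0.791), and Tfam, which packs and transcribes mitochondrial DNA, had 9.89 and 9.73 (log2 difference -0.16, adjusted p = 0.830). Genes named in this paragraph were chosen for their size after their values were seen. Which of these further genes lie on the exchanged chromosome 12 is not given here.

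In bulk liver, fewer cells of a type and less RNA per cell cannot be told apart. All 9 hepatocyte markers measured were bright, with a summed signal of 132012 to 134849 over the A/J arrays and 135449 to 139468 over the A/J-12SM arrays, and a median log2 difference of -0.01. All 12 markers of Kupffer cells and macrophages, bright too, had lower values in A/J-12SM liver (median -0.29, none called), with summed signals of 7444 to 9278 in A/J liver and 6442 to 8100 in A/J-12SM. Of 10 stellate cell and fibroblast markers 9 had higher values (median 0.03). Of 10 endothelial markers 6 had higher and 4 lower values (median 0.04). Summed endothelial signals were 5301 to 5421 in A/J liver and 5717 to 5999 in A/J-12SM. No marker of these or the other cell types looked at was called. The part of cell makeup in the values of the respiratory chain genes was not tested.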

How the data were processed

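Liver RNA of 3 A/J and 3 A/J-12SM pools was measured on 1-colour Affymetrix arrays, and the labels gave the strain and the replicate number. The deposited values are linear intensity values, 1 for each set of probes. MAS 5, the tool named in the submitters' processing notes, corrects for background and summarises the probes of a set, and the scaling target is not given in the sources used here. Since array levels differed between strains, log2 values were quantile normalized. Without the 64 controls there were 45037 probe sets, which were fitted in R 4.3.3 by limma 3.58.1 without covariates, the prior variance following brightness, with Benjamini-Hochberg adjustment over all of them and a threshold of 0.05. The fit was tested on simulated data. Gene names came from the platform annotation (34945 sets with 1 gene, 932 with several), updated through GRCm38.p6. The members and all lists were chosen with earlier results of these data known. Named genes were, per complex, the 3 bright ones with the largest difference, those on chromosome 12, tissue isoforms, up to 6 without overlap between strains, and those with disagreeing bright probe sets; others were named after their values were seen. Alternatives were other scalings, an offset of 9.2 (the 20th percentile of signals), a filter at the 40th percentile of brightness, 1 prior variance, the methods' t-test, a replicate block, the mean over a gene's probe sets and leaving out each array. The number of arrays limits the precision. The replicates are labelled biological. Figures used matplotlib 3.10.9 in Python 3.11.15.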

Additional observations from a re-analysis of the deposited data

How the results depend on the processing

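No respiratory chain gene was called by limma or the methods' t-test under any of the 15 alternatives run, and the smallest adjusted p of a member lay between 0.242, with the values as deposited, and 0.987. The median log2 difference of the members, -0.004, was -0.165 as deposited, 0.074 with each array centred on its median and 0.043 with a common trimmed mean, and it ran from -0.014 to 0.032 when each array was left out in turn, the highest being without A/J-12SM replicate 3. With the methods' t-test 5 of 94 members had an unadjusted p under 0.05, where 6.16% of all genes did, and none passed after adjustment. With the offset the median was -0.004, without dim probe sets -0.006 over 90 members, and with the mean over a gene's probe sets -0.001. Same-numbered arrays of the strains did not deviate together (correlations -0.057, 0.089 and 0.156), so the numbers were not taken as pairs; with the replicate number as a block the median was -0.004, no member was called and the smallest adjusted p was 0.736.

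Of 447 values of the 30 named genes under alternatives, 409 kept their direction and 38 did not, and none passed the threshold. Under 1 prior variance, the methods' t-test, the replicate block and the filter on dim probe sets, the differences stayed those of the main fit. They could not change direction there, so the 409 include values fixed in advance. The values as deposited turned to lower values Atp5d (-0.01), Ndufaf2 (-0.02), Ndufb6 (-0.03), Sdhb (-0.07), Sdha (-0.11), Uqcrc2 (-0.06), Ndufb11 (-0.01), Ndufaf8 (-0.20) and Uqcr10 (-0.09). Centring gave 0.01 for Atp5a1 and 0.05 for Atp5mpl, which the trimmed mean put at 0.02. The mean over all probe sets gave -0.29 for Sdha, 0.09 for Uqcrq, 0.25 for Cox8c and -0.24 for Ndufaf8. With each array left out in turn, ranges that reached or crossed zero were -0.20 to 0.00 for Atp5a1, -0.08 to 0.02 for Atp5mpl, -0.44 to 0.24 for Cox6a2, -0.43 to 0.00 for Cox8a, -0.27 to 0.20 for Cox8c, -0.18 to 1.43 for Ndufa4l2, -0.04 to 0.08 for Ndufaf8, -0.14 to 0.07 for Ndufb1, -0.03 to 0.20 for Ndufb6, -0.24 to 0.00 for Ndufs3, -0.01 to 0.06 for Sdha, -0.01 to 0.07 for Sdhb, -0.05 to 0.23 for Uqcr10 and -0.20 to 0.08 for Uqcrc1. The cause was not tested. Quantile normalization would remove a true overall difference between the strains along with a technical one. The intervals of 7 dim members and of the bright gene Cox7c did not exclude a difference of 2-fold.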

Other observations

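The 2 kinds of ribosomal protein gene gave different values in the same arrays. The 76 genes of mitochondrial ribosomal proteins, which translate the mRNAs of mitochondrial DNA, had 38 higher and 38 lower values in A/J-12SM liver, with a median log2 difference of -0.002, a range of -0.31 to 0.21 and 2 genes at an unadjusted p under 0.05. The 57 genes of cytosolic ribosomal proteins had 45 higher and 12 lower values, with a median of 0.09 and 7 genes at an unadjusted p under 0.05. Over all genes, 6.79% reached that level in limma. No gene of either list was called in limma (smallest adjusted p = 0.799 and 0.265), and the difference between the lists was not tested.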
